A study of Mus musculus with 24 samples.

Results

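The interleukin-1 (IL-1) family ligands and receptors are described here in bone marrow-derived macrophages (BMDMs) with and without *Irg1*, the gene also named *Acod1* that encodes the itaconate-producing enzyme aconitate decarboxylase 1. The members are 8 genes, *Il1a*, *Il1b*, *Il1rn*, *Il18*, *Il18bp*, *Il1r1*, *Il1r2* and *Il1rap*, chosen by symbol and found by matching the Ensembl identifiers, without their version, to GENCODE M21. All 8 were found among the 22165 genes of the table. RNA-seq was performed on WT and *Irg1*-/- BMDMs, both C57BL/6N, in 4 treatments (Unstim., which had no LPS, LPS 3h, LPS 24h, and also LPS 24h->LPS 3h), with 3 cultures in each of the 8 groups and 24 libraries in all.

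The cells were grown from mouse bone marrow for 7 days in M-CSF. The age of the mice is entered here as 8 to 20 weeks, while the study's methods give 8 to 24 weeks. In every LPS group the dose was 100 ng/ml. In LPS 24h->LPS 3h, the tolerized group, cells received LPS for 24 h, new medium and a rest of 1 h, and then LPS again for 3 h. In LPS 3h, cells went through the same steps with no LPS in the earlier phase. LPS 24h and Unstim. are entered without the rest. Comparisons of either with LPS 3h or LPS 24h->LPS 3h therefore also differ in this step, whose part was not tested. No inflammasome trigger is named in the treatments of these libraries, and the values describe mRNA only. The question put to these data is how the mRNA supply of the IL-1 system, a part of signal 1, behaved over early, late and repeated LPS, and whether loss of *Irg1* changed it.

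IL-1α and IL-1β, encoded by *Il1a* and *Il1b*, are made as precursors and bind the same receptor, IL-1R1, which signals only after recruiting the accessory chain encoded by *Il1rap*. IL-1 receptor antagonist (*Il1rn*) occupies IL-1R1 without signalling, and the decoy receptor IL-1R2 (*Il1r2*) binds IL-1 without a signalling domain. IL-18 is a related cytokine that, like IL-1β, is cut by caspase-1, and IL-18 binding protein (*Il18bp*) neutralizes it outside the cell. In macrophages, Toll-like receptor signals through NF-kappaB are the classical inducers of *Il1a* and *Il1b*.

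The ligand genes lie close together on chromosome 2 of GRCm38 (mm10), *Il1a* from 129299610 to 129309972 and *Il1b* from 129364570 to 129371139, both on the minus strand, and *Il1rn* lies on the same chromosome from 24336853 to 24351494 on the plus strand. *Il18* is on chromosome 9 from 50554827 to 50581840 and *Il18bp* on chromosome 7 from 102014885 to 102018690. *Il1r1* (40225080 to 40317257) and *Il1r2* (40074079 to 40125231) are neighbours on chromosome 1, and *Il1rap* is on chromosome 16 from 26581704 to 26730117. All 8 are protein-coding genes. In GENCODE M21, *Il18* overlaps *Bco2* and *Tex12* and *Il18bp* overlaps *Numa1*, each on the opposite strand. These 3 neighbours had 7 to 193, 0 to 4 and 168 to 2727 reads per library. The strand setting of the counting is not given in the sources used here, so *Il18* and *Il18bp* values are uncertain to that extent. *Il1a* and *Il1b* also overlap antisense transcripts, which have no row in the table.

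The promoter windows of *Il1a* and *Il1b*, from 250 bases before to 50 bases after the start site, are shown because these were the members with the widest range of mRNA and because both hold the letters TATAAA on the gene's own strand, at positions −32 and −31, counted from the start site. The sequences are RefSeq sequences of GRCm38.p6, read 5′ to 3′ on the minus strand, at chr2:129309923-129310222 for *Il1a* and chr2:129371090-129371389 for *Il1b*. Capitals mark TATAAA and, in *Il1a* only, GAGGAAG (the PU.1 motif searched) and TGANTCA (the AP-1 motif searched).

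Il1a: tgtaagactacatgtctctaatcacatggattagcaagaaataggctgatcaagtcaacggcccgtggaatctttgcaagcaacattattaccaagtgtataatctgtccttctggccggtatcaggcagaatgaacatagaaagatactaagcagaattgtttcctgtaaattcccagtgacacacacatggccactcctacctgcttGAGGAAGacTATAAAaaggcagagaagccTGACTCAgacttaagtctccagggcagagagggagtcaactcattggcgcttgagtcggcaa

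Il1b: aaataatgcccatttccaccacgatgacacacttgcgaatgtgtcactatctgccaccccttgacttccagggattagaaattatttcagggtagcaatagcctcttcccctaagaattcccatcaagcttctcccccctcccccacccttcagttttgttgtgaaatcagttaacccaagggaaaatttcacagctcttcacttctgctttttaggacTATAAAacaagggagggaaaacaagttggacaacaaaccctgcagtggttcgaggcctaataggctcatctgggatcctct

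Both strands were searched, and TGANTCA reads the same on both. Of 32851 RefSeq windows of this length, 13.6% held TATAAA, 13.6% GAGGAAG and 7.81% TGANTCA. The other motifs searched were the NF-kappaB consensus (in 4.51% of windows), TTGCNNAA for C/EBP proteins (10.8%) and GAAANNGAA for interferon regulatory factors (8.56%). The window of the *Il1rn* start at chr2:24336610-24336909 held TGANTCA at −141, those of *Il18bp* and of an *Il1r1* start each held TTGCNNAA, another *Il1r1* window held the NF-kappaB consensus, and the *Il1rap* window held GAAANNGAA 21 bases after the start. TATAAA also lay on the opposite strand in the *Il18* window and in an *Il1rn* window. A match here describes letters and does not show a bound site.

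The 3′ UTR is the end that this oligo-dT-primed, 3′-end protocol samples. The pentamer ATTTA, the core of AU-rich elements that mark many short-lived cytokine mRNAs, occurred 4 times in the longest annotated 3′ UTR of *Il1b* (459 bases), 3 times in that of *Il1a* (1101 bases) and 0 times in that of *Il1rn* (1864 bases). The receptor genes *Il1r1* (3864 bases) and *Il1rap* (2676 bases) had 8 each, *Il18bp* (861 bases) had 3, *Il18* (334 bases) had 1 and *Il1r2* (24 bases) had 0. Of 20990 protein-coding genes with an annotated 3′ UTR, 35.7% had 3 or more. The 30 bases of each with the most pentamers, in capitals, are shown for the ligands.

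Il1a 3′ UTR: attttatctatgtATTTAtaaatatATTTA

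Il1b 3′ UTR: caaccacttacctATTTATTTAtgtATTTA

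Between 3927378 and 20430359 reads per library fell on genes (median 11539056). The targeted gene, *Acod1*, had 3794 to 28063 CPM (read counts per library scaled with edgeR's TMM factors) in the WT libraries with LPS and 1.58 to 26.4 CPM in the 9 *Irg1*-/- libraries with LPS, so none of these 18 libraries went against its genotype label. In Unstim. the gene was low in both genotypes (5.82 to 11.9 CPM) and could not check the labels of those 6 libraries. All 10 macrophage markers were detected, with a summed level of 3479 to 10416 CPM per library. Of the 7 T and NK cell markers in the table none passed the filter, with a sum of at most 1.70 CPM, and the lists for B cells, dendritic cells and mast cells or basophils summed to at most 17.2 CPM. The 10 neutrophil markers, 9 of which passed, summed to 491 to 753 CPM in Unstim. and LPS 3h and to 121 to 322 CPM in the later treatments. Within this list the levels were uneven. In WT Unstim. the highest averages were those of *S100a9* and *S100a8* (318 and 197 CPM). The lowest were those of *Ly6g*, *Mpo* and *Elane* (0.368, 1.41 and 1.85 CPM). The 6 fibroblast markers, 5 of which passed, summed to 103 to 434 CPM. The part of these levels in the results was not tested. In bulk RNA, fewer cells of a type and less RNA per cell cannot be told apart. The labels carry a prefix, MB_1 to MB_4, whose meaning they do not state. All 6 Unstim. libraries have prefix 4 and no *Irg1*-/- library with LPS has it. Within *Irg1*-/- cells, the LPS responses from Unstim. and this prefix therefore cannot be told apart. A fit with the prefix as a term separates them only by taking the prefix to act alike in all groups.

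*Il1a* and *Il1b* were the most strongly induced members. In WT cells, *Il1b* had 4.38, 5.06 and 5.66 CPM in Unstim. and 6259, 5892 and 4467 CPM at LPS 3h. At LPS 24h it had 524, 280.4 and 234 CPM, and at LPS 24h->LPS 3h it had 1738, 2110.3 and 1316 CPM. The 4 treatments did not overlap in WT cells.

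The values in *Irg1*-/- cells followed the same order of treatments. *Il1b* had 12.8, 6.97 and 10.3 CPM in Unstim. and 6745, 6156 and 4152 CPM at LPS 3h. It had 299.7, 399 and 324 CPM at LPS 24h, and 2561, 2754 and 2194 CPM at LPS 24h->LPS 3h. From lowest to highest mean, the 8 groups fell into the pairs Unstim., LPS 24h, LPS 24h->LPS 3h and LPS 3h, and the genotypes overlapped within the LPS 24h pair and the LPS 3h pair.

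*Il1a* took a similar course. WT cells had 3.09, 3.91 and 4.10 CPM in Unstim., 5815, 2746 and 2687 CPM at LPS 3h, 160.1, 172 and 115 CPM at LPS 24h, and 842, 942 and 455 CPM at LPS 24h->LPS 3h. *Irg1*-/- cells had 7.64, 6.03 and 4.66 CPM in Unstim., 6038, 2556 and 2460.4 CPM at LPS 3h, 77.4, 42.6 and 34.6 CPM at LPS 24h, and 887, 1076 and 895 CPM at LPS 24h->LPS 3h. Replicate 1 of both LPS 3h groups stood above the other 2 cultures for *Il1a*, and the treatments did not overlap within either genotype.

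**Figure D1:**
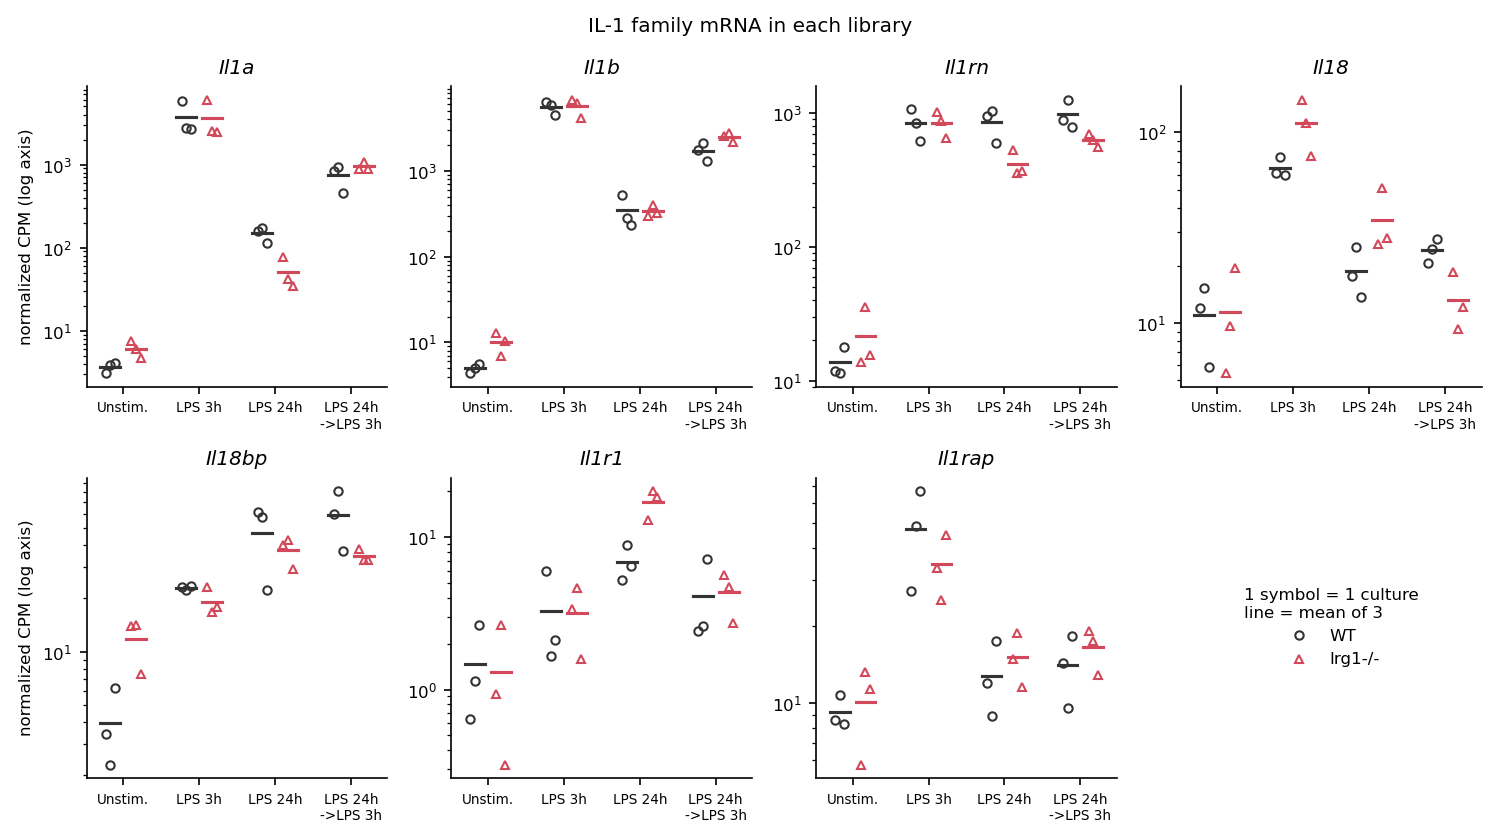
Normalized CPM (log axis, a separate scale in each panel) of the 7 members that passed the filter on low counts, in each of the 24 libraries. Each symbol is 1 culture, circles WT and triangles *Irg1*-/-, and lines are group means of 3; *Il1b* goes from 4.38 to 12.8 CPM in Unstim. to 4152 to 6745 CPM at LPS 3h, and *Il1rn* stays between 355 and 1264 CPM in every library with LPS.

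*Il1rn*, the antagonist, was high in every library with LPS, also at the times when the agonists were lower. WT cells had 11.7, 11.4 and 17.9 CPM in Unstim., 1073, 845 and 619.7 CPM at LPS 3h, 959, 1036 and 599.8 CPM at LPS 24h and 889, 1264 and 789 CPM at LPS 24h->LPS 3h. The 3 LPS groups overlapped in WT cells. In *Irg1*-/- cells the values were 13.9, 35.2 and 15.6 CPM in Unstim., 1014, 875 and 656 CPM at LPS 3h, 532, 355 and 371 CPM at LPS 24h and 696, 631 and 561 CPM at LPS 24h->LPS 3h. The LPS 24h libraries of *Irg1*-/- cells lay below every other library with LPS.

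*Il18* was highest early and covered a smaller range. WT cells had 12.0, 15.3 and 5.90 CPM in Unstim., 61.2, 74.1 and 59.3 CPM at LPS 3h, 17.5, 25.1 and 13.7 CPM at LPS 24h and 20.5, 24.4 and 27.5 CPM at LPS 24h->LPS 3h. *Irg1*-/- cells had 5.45, 9.61 and 19.4 CPM in Unstim., 148, 112 and 75.3 CPM at LPS 3h, 25.9, 50.8 and 27.7 CPM at LPS 24h and 18.4, 9.28 and 12.1 CPM at LPS 24h->LPS 3h. Both LPS 3h groups lay above all other groups, and the 6 groups below them each overlapped the next in order. A second LPS did not bring *Il18* back to its LPS 3h level in either genotype.

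*Il18bp* had the opposite timing, with its highest levels late. In WT cells it had 3.41, 2.29 and 6.19 CPM in Unstim., 23.1, 22.2 and 23.6 CPM at LPS 3h, 61.7, 57.4 and 22.2 CPM at LPS 24h and 59.8, 80.8 and 37.0 CPM at LPS 24h->LPS 3h. *Irg1*-/- cells had 13.9, 14.1 and 7.49 CPM in Unstim., 23.1, 16.7 and 17.8 CPM at LPS 3h, 39.9, 42.7 and 29.4 CPM at LPS 24h and 37.8, 33.0 and 32.9 CPM at LPS 24h->LPS 3h. Replicate 3 of WT LPS 24h, at 22.2 CPM, sat within the LPS 3h values.

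The signalling receptor *Il1r1* was a low-count gene, with 6 to 430 reads per library. Its WT means were 1.47 ± 1.03 CPM (SD, n = 3) in Unstim., 3.26 ± 2.39 at LPS 3h, 6.89 ± 1.88 at LPS 24h and 4.08 ± 2.69 at LPS 24h->LPS 3h. In *Irg1*-/- cells LPS 24h gave 13, 20.1 and 18.3 CPM, above every other library, against 0.321 to 2.64 CPM in Unstim., 1.58 to 4.61 at LPS 3h and 2.73 to 5.62 at LPS 24h->LPS 3h. The other 7 groups overlapped from each to the next in order.

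The accessory chain *Il1rap* peaked early. It had 8.63, 10.8 and 8.29 CPM in WT Unstim. and 27.3, 49.0 and 66.6 CPM at LPS 3h, and in *Irg1*-/- cells 5.77, 13.2 and 11.3 CPM and 33.5, 25.2 and 45.0 CPM. In both later treatments it ranged from 8.94 to 18.2 CPM in WT and from 11.6 to 19.1 CPM in *Irg1*-/- cells, and these 4 groups overlapped.

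The decoy receptor *Il1r2* did not pass the filter and was not tested. It had 0 reads in all 6 Unstim. libraries and in *Irg1*-/- LPS 3h, and at most 3 reads in every other library except 3. Those were WT LPS 24h replicates 1 and 3, with 6 and 12 reads, and *Irg1*-/- LPS 24h replicate 3, with 7. No direction was read from these counts, since a library with 0 reads is compatible with up to 3.

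Of the 7 members tested, 6 passed the threshold for LPS 3h against Unstim. in WT cells and 5 in *Irg1*-/- cells, all higher after LPS, where 32.0% and 35.9% of the 11878 tested genes passed in either direction. Adjusted p-values are those of edgeR (its quasi-likelihood test, Benjamini-Hochberg adjustment over these genes), with a threshold of 0.05. In WT cells, *Il1b* rose by 10.10 on the log2 scale (SE, the standard error, 0.44, adjusted p = 3.71e-17) and *Il1a* by 9.98 (SE 0.54, adjusted p = 1.76e-15). *Il1rn* rose by 5.95 (SE 0.40), *Il18* by 2.56 (0.42), *Il18bp* by 2.51 (0.39) and *Il1rap* by 2.37 (0.38), with adjusted p-values from 3.31e-13 to 1.05e-05. The median log2 fold change of the 7 members was 2.56, against −0.18 for all tested genes. Within prefix 4, where 1 WT LPS 3h library met the 3 Unstim. libraries, the differences were 9.45 for *Il1a*, 9.75 for *Il1b*, 5.52 for *Il1rn* and 2.51 for *Il18*.

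In *Irg1*-/- cells, *Il1a* rose by 9.25 (SE 0.52), *Il1b* by 9.14 (0.43), *Il1rn* by 5.31 (0.39), *Il18* by 3.26 (0.43) and *Il1rap* by 1.77 (0.38), with adjusted p-values from 2.23e-16 to 4.12e-04. The members that did not pass were *Il18bp*, with 0.72 (adjusted p = 0.142), and in both genotypes *Il1r1*. Scaling by library size alone moved the median of all genes by −0.93 in WT and −0.92 in *Irg1*-/- cells for this comparison. It ended the *Il1rap* call in *Irg1*-/- cells (0.84, adjusted p = 0.0525) and turned the direction of *Il18bp* there, which had not passed (−0.22, adjusted p = 0.638).

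At LPS 24h, 5 members passed in WT cells and 6 in *Irg1*-/- cells, all higher than in Unstim., beside 16.2% and 13.7% of all genes. The WT log2 fold changes were 6.10 for *Il1b*, 5.98 for *Il1rn*, 5.33 for *Il1a*, 3.54 for *Il18bp* and 2.19 for *Il1r1*, with standard errors from 0.38 to 0.63. In *Irg1*-/- cells they were 5.08 for *Il1b*, 4.29 for *Il1rn*, 3.88 for *Il1r1*, 3.09 for *Il1a*, 1.67 for *Il18bp* and 1.57 for *Il18*, with standard errors from 0.36 to 0.70. So at this time the antagonist stood as far above its Unstim. level as *Il1b* did in WT cells, whereas *Il18* (0.77, adjusted p = 0.211) and *Il1rap* (0.47, adjusted p = 0.460) had not passed. Within prefix 4, the WT differences were 4.91 for *Il1a*, 5.50 for *Il1b*, 5.47 for *Il1rn* and 2.54 for *Il18bp*. The WT *Il1r1* call was lost without WT LPS 24h replicate 2 (1.96, adjusted p = 0.0599), WT Unstim. replicate 1 (1.82, adjusted p = 0.0979) or WT Unstim. replicate 2 (2.04, adjusted p = 0.0677). The *Irg1*-/- *Il18* call was lost without LPS 24h replicate 2 (1.19, adjusted p = 0.0703) or Unstim. replicate 1 (1.25, adjusted p = 0.0579), and that of *Il18bp* with the label prefix as a term (1.00, adjusted p = 0.198).

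**Figure D2:**
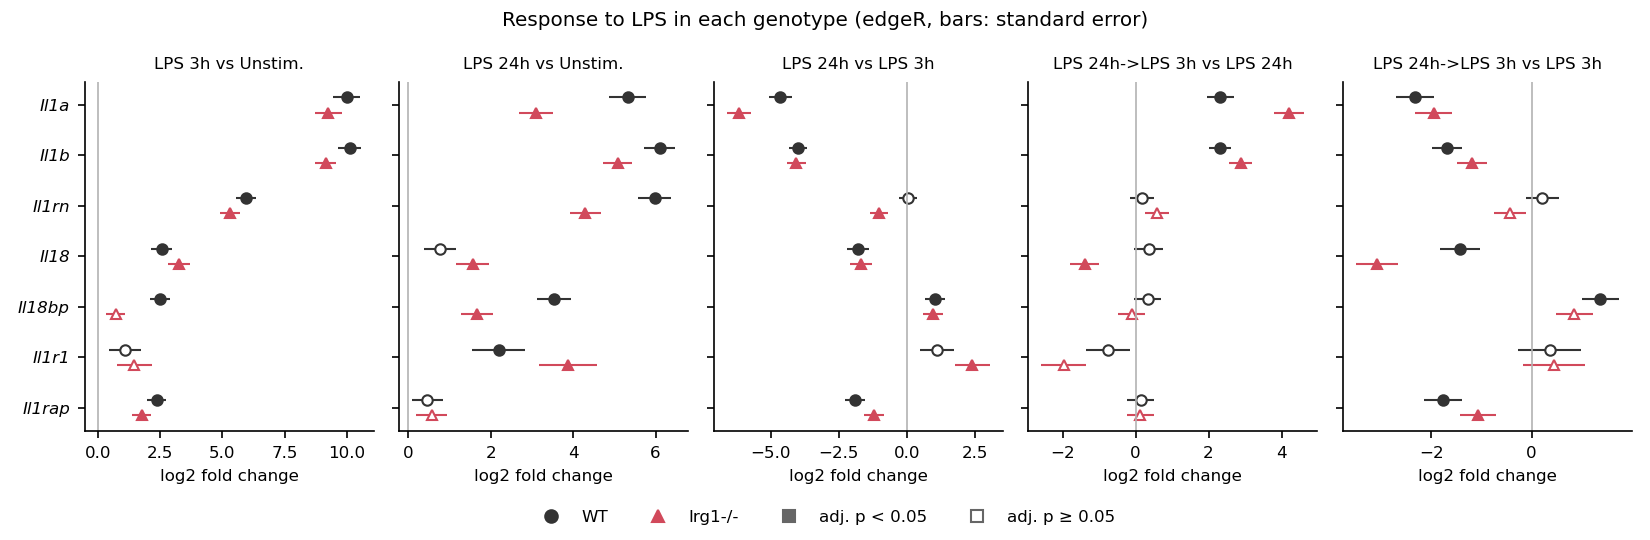
Log2 fold changes of the 7 tested members in 5 treatment comparisons, with bars of 1 standard error, for WT (circles) and *Irg1*-/- (triangles); each panel has its own horizontal scale and filled symbols mark an adjusted p under 0.05. *Il1a* and *Il1b* are at 9.14 to 10.10 at LPS 3h, are at −6.16 to −4.00 for LPS 24h against LPS 3h and rise on restimulation by 2.31 to 4.21, while *Il1rn* is near 0 in the WT comparisons among LPS groups.

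Between LPS 3h and LPS 24h, 5 members passed in WT cells, 4 lower and 1 higher, and all 7 in *Irg1*-/- cells, 5 lower and 2 higher, beside 32.3% and 35.0% of all genes. In WT cells *Il1a* fell by 4.65 (SE 0.42, adjusted p = 7.48e-10), and in *Irg1*-/- cells it fell by 6.16 (SE 0.45, adjusted p = 6.48e-12). *Il1b* had −4.00 and −4.06 (SE 0.34 in both). *Il18* had −1.79 and −1.69 and *Il1rap* −1.90 and −1.20, all past the threshold.

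*Il1rn* did not pass in WT cells (0.03, SE 0.33, adjusted p = 0.953) and fell by 1.02 in *Irg1*-/- cells (SE 0.33, adjusted p = 0.0161). *Il18bp* rose by 1.03 in WT cells (adjusted p = 0.0313) and by 0.96 in *Irg1*-/- cells (adjusted p = 0.0431). *Il1r1* rose by 2.41 in *Irg1*-/- cells (SE 0.63, adjusted p = 0.00356) and was at 1.11 in WT cells (adjusted p = 0.177, and 0.027 under scaling by library size alone).

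Several of these calls were close to the threshold. With the label prefix as a term, only *Il1a* and *Il1b* of the 7 passed in *Irg1*-/- cells. The WT *Il18bp* call was lost on leaving out WT LPS 24h replicate 1 or 2 or WT LPS 3h replicate 1, 2 or 3 (log2 fold changes from 0.79 to 1.05 and adjusted p from 0.0663 to 0.139). That of *Irg1*-/- cells was lost without LPS 24h replicate 1 or 2 or LPS 3h replicate 2 or 3 (0.85 to 0.91, adjusted p from 0.106 to 0.124). The *Irg1*-/- fall of *Il1rn* was lost without LPS 24h replicate 2 (−0.91, adjusted p = 0.0707) or LPS 3h replicate 1 (−0.87, adjusted p = 0.0676) and was −0.29 (adjusted p = 0.480) under scaling by library size alone, which moved the median of all genes by 0.73 in this comparison. The *Irg1*-/- fall of *Il1rap* was lost without LPS 3h replicate 3 (−0.97, adjusted p = 0.0660) and under library size alone (−0.45, adjusted p = 0.30).

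In WT cells these differences could also be read within prefixes 1, 2 and 4, with 1 library against 1 in each. From LPS 3h to LPS 24h, *Il1b* differed by −3.58, −4.39 and −4.26 on the log2 scale, *Il1a* by −5.18, −4.00 and −4.54, and *Il18* by −1.79, −1.55 and −2.11. *Il1rn* differed by −0.16, 0.29 and −0.05, and *Il18bp* by 1.41, 1.37 and −0.09. *Irg1*-/- cells had no prefix in common between these treatments.

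*Il1a* and *Il1b* were higher after the rest and second LPS than at LPS 24h, and no other member passed as higher. For LPS 24h->LPS 3h against LPS 24h, 2 members passed in WT cells and 3 in *Irg1*-/- cells, beside 3.99% and 5.14% of all genes. In WT cells *Il1a* rose by 2.33 (SE 0.38, adjusted p = 2.1e-04), and in *Irg1*-/- cells it rose by 4.21 (SE 0.41, adjusted p = 2.19e-08). *Il1b* rose by 2.31 (SE 0.31) and 2.88 (SE 0.32). The third call in *Irg1*-/- cells was a fall of *Il18* by 1.39 (SE 0.40, adjusted p = 0.0341), where WT cells had 0.36 (adjusted p = 0.731). *Il1rn* (0.18 and 0.59), *Il18bp* (0.33 and −0.11), *Il1r1* (−0.75 and −1.97) and *Il1rap* (0.14 and 0.13) did not pass, with *Il1r1* in *Irg1*-/- cells at an adjusted p of 0.0550 (0.0323 under scaling by library size alone). That scaling turned the directions of *Il1rn* in WT cells (−0.0059) and of *Il1rap* in both genotypes (−0.04 and −0.07).

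The fall of *Il18* in *Irg1*-/- cells was not past the threshold without LPS 24h replicate 2 (−1.02, adjusted p = 0.258), LPS 24h replicate 3 (−1.50, adjusted p = 0.05), LPS 24h->LPS 3h replicate 2 (−1.19, adjusted p = 0.194) or LPS 24h->LPS 3h replicate 3 (−1.33, adjusted p = 0.133). Within prefix 1, with 2 restimulated libraries against 3, *Il18* differed by −1.63, *Il1a* by 4.33 and *Il1b* by 2.86. In WT cells, the differences within prefixes 1, 2 and 4 were 0.23, −0.04 and 1.00 for *Il18* and 1.73, 2.91 and 2.49 for *Il1b*.

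The second response was smaller than the first for the agonists. For LPS 24h->LPS 3h against LPS 3h, 5 members passed in WT cells, 4 lower and 1 higher, and 4 in *Irg1*-/- cells, all lower, beside 25.5% and 27.2% of all genes. For *Il1a* the log2 fold change was −2.33 in WT (SE 0.38, adjusted p = 2.72e-05) and −1.95 in *Irg1*-/- cells (SE 0.37, adjusted p = 2.02e-04). *Il1b* had −1.69 and −1.18, *Il18* −1.43 and −3.08, and *Il1rap* −1.76 and −1.07. *Il18bp* was higher by 1.37 in WT cells (adjusted p = 0.00671) and at 0.85 did not pass in *Irg1*-/- cells (adjusted p = 0.0862).

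*Il1rn* did not pass in this comparison in either genotype (0.21 and −0.43, adjusted p = 0.661 and 0.338), so its mRNA after repeated LPS was not distinguishable from that at LPS 3h. The *Irg1*-/- *Il1rap* call was lost without LPS 3h replicate 1 (adjusted p = 0.0512) or 3 (0.134), or LPS 24h->LPS 3h replicate 2 (0.0649) or 3 (0.112). The WT *Il18bp* call was lost without LPS 24h->LPS 3h replicate 2 (1.07, adjusted p = 0.0525). Scaling by library size alone moved the median of all genes by 0.46 and 0.53 and ended the calls of *Il18* in WT cells (−0.98, adjusted p = 0.0534) and, in *Irg1*-/- cells, of *Il1b* (−0.66, adjusted p = 0.0864) and *Il1rap* (−0.52, adjusted p = 0.254). In *Irg1*-/- cells it also took *Il18bp* past the threshold (1.38, adjusted p = 0.00571) and turned the direction of *Il1rn*, which did not pass (0.10, adjusted p = 0.83). Within prefixes 1, 2 and 4, the WT differences were −1.85, −1.48 and −1.76 for *Il1b* and −2.79, −1.54 and −2.56 for *Il1a*, and within prefix 2 the *Irg1*-/- differences were −1.40 and −2.77.

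Comparing *Irg1*-/- with WT cells in each treatment, 0, 0, 1 and 0 of the 7 members passed edgeR's test in the order Unstim., LPS 3h, LPS 24h, LPS 24h->LPS 3h, beside 0.0421%, 0.00842%, 0.598% and 0.118% of all genes. At an unadjusted p under 0.05 the counts were 2, 0, 4 and 2, beside 5.20%, 5.84%, 10.1% and 7.88% of all genes. DESeq2's Wald test called 1, 0, 1 and 0 members, beside 0.292%, 0.0730%, 1.82% and 0.867% of the genes to which it gave an adjusted p. The libraries of the genotypes did not overlap for 3, 1, 4 and 3 members, where this held for 9.44%, 9.08%, 16.5% and 12.9% of all genes.

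The member that passed was *Il1a* at LPS 24h, which was lower in *Irg1*-/- cells (log2 fold change −1.53, SE 0.37, adjusted p = 0.0459). Its 3 *Irg1*-/- libraries, at 34.6 to 77.4 CPM, lay below the 3 WT libraries, at 115 to 172 CPM. Within prefix 1, with 3 *Irg1*-/- libraries against 1 WT library, the difference was −1.72. The call was kept without *Irg1*-/- LPS 24h replicate 1 (adjusted p = 0.0401) and lost without any other of the 6 libraries, with log2 fold changes from −1.30 to −1.66 and adjusted p from 0.0612 to 0.345. Fitted on the 2 compared groups alone it had an adjusted p of 0.216, with library size alone 0.0842, and over the other alternatives it ranged from 0.00139 to 0.427.

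*Il1b* did not pass in any treatment. Its log2 fold changes, *Irg1*-/- against WT, were 1.00 in Unstim. (SE 0.32, adjusted p = 0.481), 0.04 at LPS 3h (0.30, adjusted p = 1), −0.02 at LPS 24h (0.30, adjusted p = 0.996) and 0.54 at LPS 24h->LPS 3h (0.30, adjusted p = 0.711). For the middle pair of treatments the direction turned when a library was left out. Within prefixes the differences were 0.20 (LPS 3h, prefix 2), −0.63 (LPS 24h, prefix 1), and 0.50 and 0.28 (LPS 24h->LPS 3h, prefixes 1 and 2). In Unstim., where all 6 libraries shared prefix 4, the 3 *Irg1*-/- libraries lay above the 3 WT libraries. They also did at LPS 24h->LPS 3h, with 2193.9 to 2754.5 CPM against 1315.7 to 2110.3 CPM. The genotypes did not overlap for 9.44% and 12.9% of all genes in these treatments.

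*Il1rn* was lower in every *Irg1*-/- library than in every WT library at LPS 24h and at LPS 24h->LPS 3h, but neither difference passed. The log2 fold changes were 0.64 in Unstim. (SE 0.34, adjusted p = 1), 0.00 at LPS 3h (0.33, adjusted p = 1), −1.05 at LPS 24h (0.33, adjusted p = 0.168) and −0.64 at LPS 24h->LPS 3h (0.33, adjusted p = 0.663). Within prefix 1 the LPS 24h difference was −1.22, and within prefixes 1 and 2 the LPS 24h->LPS 3h differences were −0.58 and −0.86.

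*Il18* did not pass in any treatment, and its estimates did not share 1 sign. It had 0.09 in Unstim. (SE 0.40, adjusted p = 1), 0.79 at LPS 3h (0.39, adjusted p = 0.856), 0.89 at LPS 24h (0.40, adjusted p = 0.432) and −0.87 at LPS 24h->LPS 3h (0.40, adjusted p = 0.585). In all 3 LPS treatments the libraries of the genotypes did not overlap, where this held for 9.08%, 16.5% and 12.9% of all genes. Within prefixes the differences were 1.00 at LPS 3h (prefix 2), 0.91 at LPS 24h (prefix 1), and −0.94 and −0.40 at LPS 24h->LPS 3h (prefixes 1 and 2).

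Of the remaining members, *Il18bp* in Unstim. was at 7.49 to 14.1 CPM in *Irg1*-/- cells and 2.29 to 6.19 CPM in WT cells, which did not pass in edgeR's test (1.53, SE 0.39, adjusted p = 0.251) and passed in DESeq2's (adjusted p = 0.0297). *Il1r1* at LPS 24h was at 13 to 20.1 CPM in *Irg1*-/- cells and 5.23 to 8.94 CPM in WT cells (1.31, SE 0.60, adjusted p = 0.452). *Il1rap* overlapped between genotypes in all 4 treatments, with log2 fold changes from −0.47 to 0.24.

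**Figure D3:**
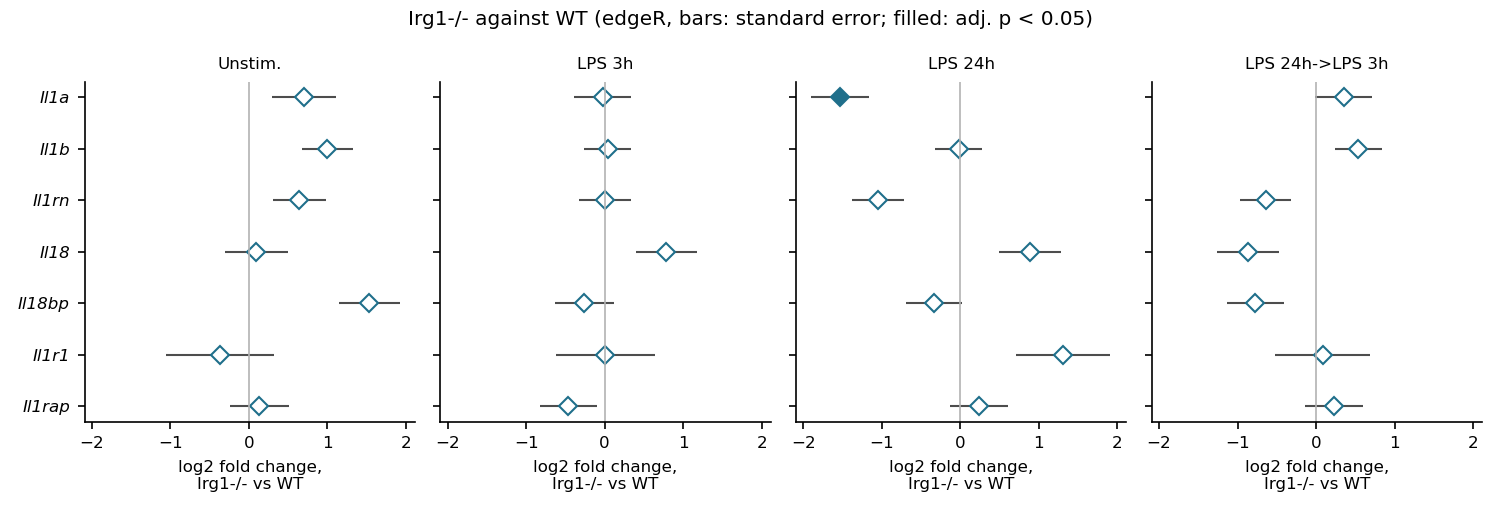
Log2 fold changes of *Irg1*-/- against WT in the 4 treatments for the 7 tested members, with bars of 1 standard error, from the fit over 24 libraries. The filled diamond, the only difference past an adjusted p of 0.05, is *Il1a* at LPS 24h at −1.53, and the open diamonds range from −1.05 to 1.53.

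The difference between genotypes was tested as an interaction for 4 responses. For the change from LPS 3h to LPS 24h it was not tested, so the genotypes are not shown to differ in that change. None of the 7 members passed edgeR's test for LPS 3h against Unstim., LPS 24h against Unstim., LPS 24h->LPS 3h against LPS 24h or LPS 24h->LPS 3h against LPS 3h, beside 0.00842%, 0.210%, 0.00842% and 0% of all genes. At an unadjusted p under 0.05 there were 2, 4, 2 and 1 members, beside 5.68%, 8.14%, 8.66% and 7.23% of all genes. By DESeq2's Wald test there were 0, 3, 0 and 0, beside 0.0337%, 0.848%, 0.546% and 0.286% of genes. The 3 were *Il1a* (adjusted p = 0.00917), *Il1rn* (0.0298) and *Il18bp* (0.0481), whose rise from Unstim. to LPS 24h was smaller in *Irg1*-/- cells, where the label prefix differs between these treatments and cannot be told apart from them. In edgeR's test these interactions were −2.23 for *Il1a* (SE 0.55, adjusted p = 0.0898, and 0.0465 without *Irg1*-/- LPS 24h replicate 1), −1.69 for *Il1rn* (0.47, adjusted p = 0.175) and −1.87 for *Il18bp* (0.53, adjusted p = 0.185). For restimulation against LPS 24h they were 1.88 for *Il1a* (0.52, adjusted p = 0.214) and −1.75 for *Il18* (0.56, adjusted p = 0.288). Thus the different outcomes of *Il18* on restimulation in the 2 genotypes were not shown to differ at this threshold.

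Ratios of the reads of 2 members within a library need no library size, and they describe the balance of agonist and antagonist mRNA. Because genes differ in how well their ends are captured, only the change of a ratio between groups is read, not its absolute size. *Il1rn* reads per *Il1b* read were 2.66, 2.23 and 3.15 in WT Unstim., 0.171, 0.143 and 0.139 at LPS 3h, 1.83, 3.69 and 2.57 at LPS 24h and 0.512, 0.599 and 0.599 at LPS 24h->LPS 3h. In *Irg1*-/- cells they were 1.08, 5.0 and 1.51, then 0.150, 0.142 and 0.158, then 1.77, 0.889 and 1.14, and then 0.272, 0.229 and 0.256.

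In both genotypes the ratio was lowest at LPS 3h, where the genotypes overlapped, overlapped Unstim. at LPS 24h, and lay between these on restimulation. The mean log2 ratio of *Il1rn* to *Il1b*, *Irg1*-/- minus WT, was −1.09 at LPS 24h (pooled SD 0.51) and −1.18 at LPS 24h->LPS 3h (pooled SD 0.13), with no overlap. At LPS 3h it was −0.0049 (pooled SD 0.13), with overlap. All 3 *Irg1*-/- LPS 24h libraries have prefix 1. The WT LPS 24h library with this prefix had a ratio of 1.83, the lowest of its group, against 0.889 to 1.77 in *Irg1*-/- cells. On restimulation, WT and *Irg1*-/- cells had 0.512 against 0.229 and 0.256 in prefix 1, and 0.599 against 0.272 in prefix 2. The part of the prefix in these ratios was not tested. With 3 cultures against 3 the two-sided exact permutation test cannot go below p = 0.1, which is its value wherever groups do not overlap. Over the 56 ratio comparisons made, the smallest Benjamini-Hochberg adjusted value was 0.151, so no ratio passed.

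The ratio of *Il1a* to *Il1b* reads did not overlap between genotypes at LPS 24h. It was 0.305, 0.612 and 0.494 in WT and 0.258, 0.107 and 0.107 in *Irg1*-/- cells (mean log2 difference −1.66, pooled SD 0.63), while in the other 3 treatments the genotypes overlapped with differences from −0.25 to −0.08. The *Il1rn* to *Il1a* log2 ratio in *Irg1*-/- cells stood above WT at LPS 24h (0.57, pooled SD 0.24) and below it at LPS 24h->LPS 3h (−1.03, pooled SD 0.30). Within prefix 1 at LPS 24h, *Il1a* reads per *Il1b* read were 0.305 in WT and 0.107 to 0.258 in *Irg1*-/- cells. *Il1rn* reads per *Il1a* read were 5.99 and 6.87 to 10.7 there. On restimulation they were 1.06 against 0.587 and 0.627 in prefix 1, and 1.34 against 0.785 in prefix 2.

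*Il18bp* reads per *Il18* read were higher late than at LPS 3h. They were 0.379, 0.30 and 0.398 in WT cells and 0.156, 0.149 and 0.237 in *Irg1*-/- cells at LPS 3h, 3.51, 2.28 and 1.62 and 1.54, 0.841 and 1.06 at LPS 24h, and 2.91, 3.31 and 1.34 and 2.05, 3.54 and 2.72 at LPS 24h->LPS 3h. The genotypes did not overlap at LPS 3h (mean log2 difference −1.01, pooled SD 0.30) and LPS 24h (−1.08, pooled SD 0.50) and overlapped at LPS 24h->LPS 3h (0.20, pooled SD 0.57). Within prefix 2 at LPS 3h the ratio was 0.30 in WT and 0.156 in *Irg1*-/- cells. Within prefix 1 at LPS 24h it was 3.51 in WT and 0.841 to 1.54 in *Irg1*-/- cells. In Unstim. the ratio spread from 0.153 to 2.52 over the 6 libraries.

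**Figure D4:**
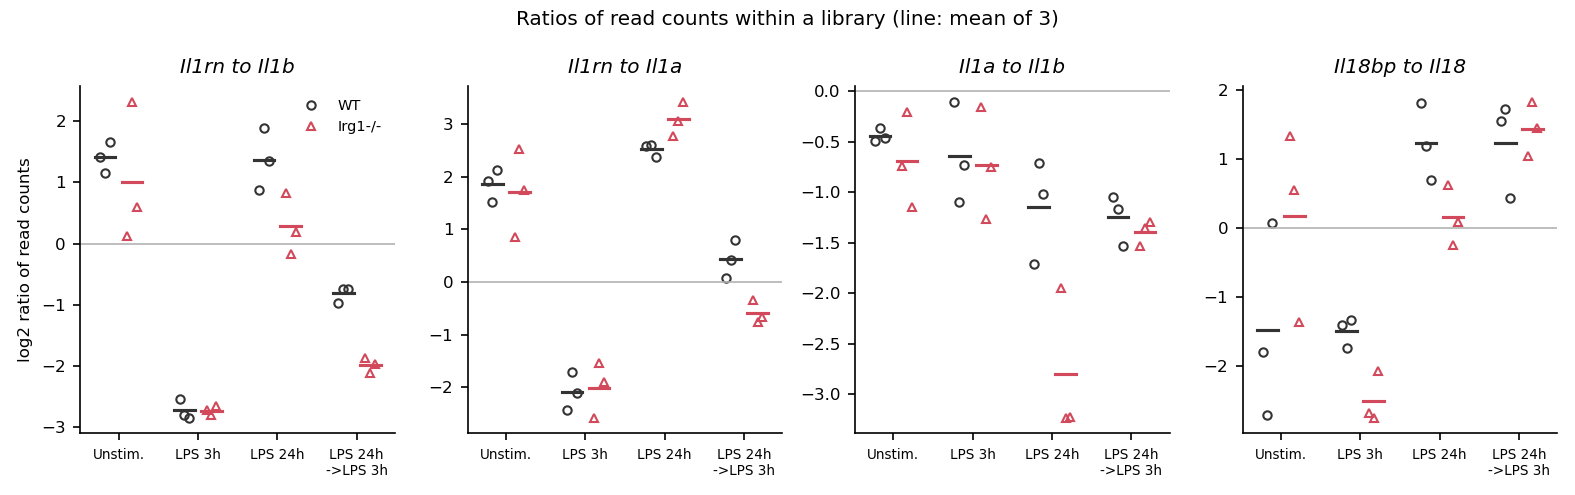
Log2 ratios of read counts of 2 members within each library (0.5 added to each count), for WT (circles) and *Irg1*-/- (triangles) in 4 treatments, with lines at the means of 3. The *Il1rn* to *Il1b* panel shows the genotypes together near −2.73 at LPS 3h and apart at LPS 24h->LPS 3h, at −0.81 in WT and −1.99 in *Irg1*-/- cells.

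The rest of the IL-1 family was sparse. Of 6 other ligands, *Il33*, *Il1f6* (IL-36α) and *Il1f9* (IL-36γ) passed the filter, and *Il1f9* passed the test as higher at LPS 3h in both genotypes. *Il1f9* averaged 2.42 and 0.482 CPM in WT and *Irg1*-/- Unstim. and 21.4 and 32.4 CPM at LPS 3h (log2 fold changes 3.14 and 5.50), and 23.3 and 5.17 CPM at LPS 24h. Between genotypes *Il1f9* did not pass edgeR's test in any treatment (−2.17 at LPS 24h, adjusted p = 0.0628). Its interaction for LPS 3h against Unstim. did not pass either (adjusted p = 0.779). *Il33*, an alarmin, averaged 1.77 and 3.38 CPM at LPS 3h and 0 to 0.0243 CPM in the other 6 groups, so it passed the filter through the LPS 3h groups alone and its tests are not read. *Il1f6* was at 0 in both Unstim. groups and averaged 0.556 to 3.01 CPM in the groups with LPS. It thus passed the filter only through groups with LPS. Its tests at LPS 3h, which passed in both genotypes, are therefore not read either. Of 7 other receptors, only *Il1rl1* (the IL-33 receptor), *Il1rl2* (the IL-36 receptor) and *Il18rap* passed the filter, and none of these 3 passed the test at LPS 3h. The IL-18 receptor chain *Il18r1* had at most 7 reads in any library.

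All 14 genes of the list for IL-1 receptor signalling were tested. At LPS 3h, 6 rose and 3 fell in WT cells and 5 rose and 3 fell in *Irg1*-/- cells, beside 32.0% and 35.9% of all genes in either direction. The ubiquitin ligase gene *Peli1* rose by 4.88 and 4.77, *Irak3*, which encodes an inhibitory kinase relative, by 3.17 and 2.64, the adaptor gene *Myd88* by 2.81 and 2.78 and *Tab2* by 2.74 and 2.49. At LPS 24h, 4 rose and 2 fell in WT cells and 2 rose in *Irg1*-/- cells, *Irak3* by 2.71 and 3.25 among them. The background was 16.2% and 13.7% of all genes, and the *Irg1*-/- count of 2 of 14 is near it. The list's median log2 fold change at LPS 3h was 0.43 in WT and 0.39 in *Irg1*-/- cells, against −0.18 and −0.20 for all tested genes.

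The 10 genes of the list for IL-1 maturation and release had counts of 5 higher and 1 lower in WT and 6 higher and 2 lower in *Irg1*-/- cells at LPS 3h, beside the same 32.0% and 35.9%. *Nlrp3*, the sensor that assembles the inflammasome, rose by 6.62 and 6.0, *Casp4* by 4.35 and 4.26, *Aim2* by 3.02 and 3.83 and *Casp1*, which cuts pro-IL-1β and pro-IL-18, by 2.39 and 1.89, while *Nlrp1b* had −2.22 and −2.08. *Nlrp3* then fell between LPS 3h and LPS 24h by 5.93 and 5.50 and rose on restimulation by 3.13 and 3.58, as *Il1a* and *Il1b* did in direction. None of the genes in these 2 lists passed in *Irg1*-/- against WT in any of the 4 treatments.

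Over the 8 group means of log2 CPM, *Il1a* and *Il1b* had a Pearson correlation of 0.982, whereas *Il18* and *Il18bp* had 0.295 and *Il1r1* and *Il1rap* 0.141. These correlations are descriptions over 8 points and were not tested. The genes most like *Il1a* were *Cxcl2* (0.998), *Gch1* (0.997) and *Nfkbia* (0.996), and those most like *Il1b* were *Orai2* (0.996), *Tarm1* (0.993) and *Ifi205* (0.993). *Il1rn* was most like *C3* (0.996), *Zbp1* (0.995) and *Slc28a2* (0.995). *Il18* was most like *Tmem86b* (0.985), *Setdb2* (0.980) and *Golga3* (0.978), and *Il18bp* most like *Cd33* (0.989), *Taf13* (0.972) and *H2-T10* (0.967). For the receptors, *March1* (0.995), *Gm7676* (0.994) and *Atp6v0a2* (0.972) were most like *Il1r1*, and *4930453N24Rik* (0.992), *Lrrk2* (0.989) and *Lrrc58* (0.987) most like *Il1rap*.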

How the data were processed

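The authors prepared 3′-end libraries from oligo-dT-primed mRNA of 24 BMDM cultures with sample barcodes, pooled the cDNA and amplified it by PCR. Their aligner was STAR and their build mm10. The deposited values are whole-number counts of reads per gene, not normalized. No molecular identifiers are described, so PCR copies count as reads. The counting program, annotation and strand setting are not given in the sources used here. The 5 summary lines held reads on no feature (22.1% to 33.7%), ambiguous reads (0.254% to 0.441%) and reads not aligned uniquely (15.1% to 22.5%), and stayed out of library sizes and tests.

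Counts were normalized by TMM and filtered by filterByExpr, and edgeR 4.0.16 (glmQLFit, glmQLFTest, R 4.3.3) was fitted to 11878 genes and all 24 libraries with the 8 groups as the only term. Adjusted p-values are Benjamini-Hochberg values over these genes, and a standard error is the log2 fold change divided by the square root of F. Log2 CPM used a prior count of 2, and ratios added 0.5 to each count. Within-prefix values are differences of log2 CPM. The fit was tested on simulated data. Alternatives were DESeq2 1.42.0 (size factors or Wald test), library size alone, other filters, the compared groups alone, the replicate number as a block, the label prefix as a term, and each library left out.

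Members, lists and comparisons were chosen with earlier results of these data known. Log2 fold changes, standard errors and adjusted p-values are given for members past the threshold and, between genotypes, for *Il1b*, *Il18* and *Il1rn*; other values given in the text were added after they were seen. Of other lists, up to 4 genes past the threshold with the largest change are named. The cultures are separate per the study's methods. The IL-36 genes were matched under their M21 symbols. The main fit did not pair cultures by replicate number.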

Additional observations from a re-analysis of the deposited data

How the results depend on the processing

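The number of members past the threshold stayed within 1.5 times its value in 150 of 162 alternatives and 126 of 132 fits with 1 library left out. For LPS 24h against LPS 3h in *Irg1*-/- cells it was 2 instead of 7 with the label prefix as a term. Between genotypes it was 1 (*Il18bp*) instead of 0 in Unstim. with DESeq2's Wald test and with no filter on low counts. After LPS 24h it was 0 instead of 1 with library size only, with only the compared groups and with the replicate block nested in genotype, and 0 to 1 with 1 library left out. For the interaction of LPS 24h against Unstim. it was 3 with DESeq2's Wald test, 1 (*Il1a*) instead of 0 with no filter, with the replicate block, with the replicate block nested in genotype and with the label prefix, and 0 to 1 with 1 library left out. For the interaction of restimulation against LPS 24h it was 2 (*Il1a* and *Il18*) with no filter.

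The sign of *Il1b* between genotypes changed after LPS 3h with the replicate block nested in genotype (−0.0554) and ranged from −0.10 to 0.22 with 1 library left out. After LPS 24h it was 0.0741 with library size only, 0.0192 with only the compared groups, 0.0266 with the replicate block, and −0.20 to 0.41 with 1 library left out. With 1 library left out, *Il1rn* after LPS 3h ranged from −0.18 to 0.21 and *Il18* in Unstim. from −0.56 to 0.42. None of these 4 differences passed in any alternative. Ratio differences moved by less than the pooled SD of the cultures in all 56 values with a pseudocount of 1. The 336 values with 1 library left out must do so by arithmetic in groups of 3, so that outcome shows nothing. Of the 336, 24 changed sign, in 13 comparisons whose groups overlapped. Where groups do not overlap, leaving 1 library out cannot change the sign. Where the cause of a change is not stated, the cause was not tested.

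Same-numbered cultures of 1 genotype had correlations of −0.10 to 0.34 in their deviations from group means, with 5 of 36 over 0.1. Those with different numbers had −0.23 to 0.19, with 6 of 72 over 0.1. Across genotypes, 11 of 48 same-numbered and 7 of 96 differently numbered pairs were over 0.1. In WT cells with LPS, replicates 1, 2 and 3 had prefixes 1, 2 and 4, so number and prefix coincide there. Whether the numbers pair cultures is therefore not settled, and the main fit did not pair them. The block changed no other count by more than 1.5 times. Depth limits *Il1r2* and, in Unstim., *Il1r1*.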
